A study of Mus musculus with 4 samples.

Results

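The genes described here are 10 immediate early genes used as markers of neuronal activity, and they were measured by every probe whose gene name in the scanner files is one of Fos, Fosb, Junb, Egr1, Egr2, Nr4a1, Npas4, Arc, Ier2 and Btg2. This gave 14 of the 41174 transcript probes on the array and 10 of the 28632 gene names. Junb and Ier2 had 2 probes each, Btg2 had 3 and the other members had 1. All 14 probes passed the filter on dim spots, one of the Ier2 probes only through 1 group, as described with that gene.

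Immediate early genes are transcribed within minutes of a stimulus, before any new protein is made, and in neurons they are read as a record of recent synaptic activity. Calcium entry and MAP kinase signalling reach their promoters through transcription factors already present in the nucleus, chiefly CREB, which binds the cyclic AMP response element (CRE), and serum response factor, which binds the CArG box. Their products are mostly transcription factors that switch on a later wave of genes, together with a few proteins that act at synapses or on RNA. Inflammatory signals such as bacterial lipopolysaccharide (LPS) induce some of the same genes in many cell types, neurons and others.

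The groups were P2X7R -/- knockout (KO) mice given LPS, KO mice given saline, wild-type (WT) mice given LPS and WT mice given saline. P2X7R, encoded by P2rx7, is an ion channel opened by extracellular ATP. All mice were C57BL/6J males of 10 weeks, injected intraperitoneally and killed 6 h later. The LPS dose is given as 7.5 µg per mouse and also as 250 µg/kg. Each group held 4 mice per the labels and 4 arrays in the files, which makes 16 arrays of Cy3-labelled cRNA from whole amygdala. The knockout is of the whole animal, and how the allele was made is not described in the labels. The labels do not tie an array to a mouse, and part of the spread behind each p-value may therefore be technical.

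P2rx7 itself was lower in KO by −1.65 ± 0.25 after LPS and by −1.51 ± 0.25 after saline (log2 difference ± SE, n = 4 arrays per group, limma adjusted p = 9.89e-05 and 0.000196). Neuron markers (9 genes) were well above background on every array, with a mean level of 4.27 to 4.57 on the KO arrays and 3.16 to 4.09 on the WT arrays (log2, array 75th percentile = 0). Genotype was hybridised on separate slides and scanned in separate sessions, so genotype and slide cannot be told apart: slides 3 and 4 held the KO arrays, slides 1 and 2 the WT arrays. Each slide held 2 LPS and 2 saline arrays. Some arrays stood apart from their group. WT saline arrays 1 and 2 had a mean level of 0.97 and 0.96 over 8 genes of the LPS response, against −4.50 and −4.53 on WT saline arrays 3 and 4. That list had a mean of −0.67 and −0.11 on WT LPS arrays 1 and 4 but 1.54 and 1.32 on arrays 2 and 3. Region and glial markers also differed among the WT arrays. Oligodendrocyte markers ranged from 1.71 to 3.38 in WT LPS and from 2.42 to 3.57 in WT saline, and choroid plexus markers from −4.12 to −0.32 in WT LPS and from −3.76 to −0.77 in WT saline. KO saline array 1 deviated most from its group, with a median absolute deviation of 0.47 over all genes against 0.12 to 0.24 on the other 15 arrays. The files do not settle whether WT arrays were exchanged between treatments. The labels were used as given, and every WT LPS, interaction and genotype value below rests on them. The calls that these arrays enter are also given without WT saline arrays 1 and 2 or without KO saline array 1. In whole tissue, fewer cells of a type and less RNA per cell cannot be told apart.

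The promoters of 7 members were available from RefSeq (GRCm38.p6), namely those of Btg2, Egr2, Fos, Fosb, Junb, Npas4 and Nr4a1; Arc, Ier2 and Egr1 are named only. The 250 bases before the start are printed for the AP-1 members Fos, Fosb and Junb and for the neuron-specific factor Npas4, because the KO LPS arrays of these 4 genes did not overlap the KO saline arrays, higher for Fos and Junb and lower for Fosb and Npas4. Capitals mark each CRE core, TGACG or its reverse complement CGTCA.
Fos: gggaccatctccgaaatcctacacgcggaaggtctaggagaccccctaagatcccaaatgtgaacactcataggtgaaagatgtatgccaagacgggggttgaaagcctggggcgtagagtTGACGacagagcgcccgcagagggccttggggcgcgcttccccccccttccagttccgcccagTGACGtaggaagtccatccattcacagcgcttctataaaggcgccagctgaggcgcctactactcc
Fosb: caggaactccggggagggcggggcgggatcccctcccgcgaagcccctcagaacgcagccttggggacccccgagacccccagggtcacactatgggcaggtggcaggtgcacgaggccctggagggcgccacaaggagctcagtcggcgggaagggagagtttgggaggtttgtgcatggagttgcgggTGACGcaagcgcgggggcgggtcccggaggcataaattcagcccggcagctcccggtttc
Junb: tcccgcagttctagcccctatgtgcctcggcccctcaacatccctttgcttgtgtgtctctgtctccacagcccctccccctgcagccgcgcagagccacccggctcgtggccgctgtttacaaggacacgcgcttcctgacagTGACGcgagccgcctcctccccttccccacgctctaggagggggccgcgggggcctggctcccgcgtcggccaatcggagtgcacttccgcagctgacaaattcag
Npas4: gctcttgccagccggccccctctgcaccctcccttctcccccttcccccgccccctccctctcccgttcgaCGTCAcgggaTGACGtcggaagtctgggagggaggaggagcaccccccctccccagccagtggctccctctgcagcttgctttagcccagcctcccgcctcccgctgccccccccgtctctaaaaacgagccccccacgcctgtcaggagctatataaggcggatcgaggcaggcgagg
The windows are chr12:85473640-85473889 on the plus strand for Fos, chr7:19310046-19310295 on the minus strand for Fosb, chr8:84978749-84978998 on the minus strand for Junb and chr19:4989972-4990221 on the minus strand for Npas4. The CRE cores begin 129 and 66 bases before the start of Fos, 60 before that of Fosb, 106 before that of Junb and 179 and 169 before that of Npas4. Both strands were searched. All 7 promoters held the CRE core, Egr2 in 3 of the windows of its 5 starts, which share sequence, against 17.8% of the 32851 windows in the table. The full CRE, TGACGTCA, which contains the core, was in that of Btg2 alone of the 7, against 1.55% of windows. The CArG box was in 4 of the Egr2 windows and in none of the other members' windows, against 1.47% of windows. Each window held only the 250 bases before a start, so a box further upstream was not searched for. TATAAA was in the Fos window alone, against 12.4% of windows. The EGR sites GCGTGGGCG or GCGGGGGCG were in those of Fosb and Nr4a1, against 3.06%. The NF-kB site, searched under that name, was in 1 or more windows of Egr2, Fos, Fosb and Npas4, against 7.25% of windows. Such a match describes letters and is not a bound site.

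**Figure D1:**
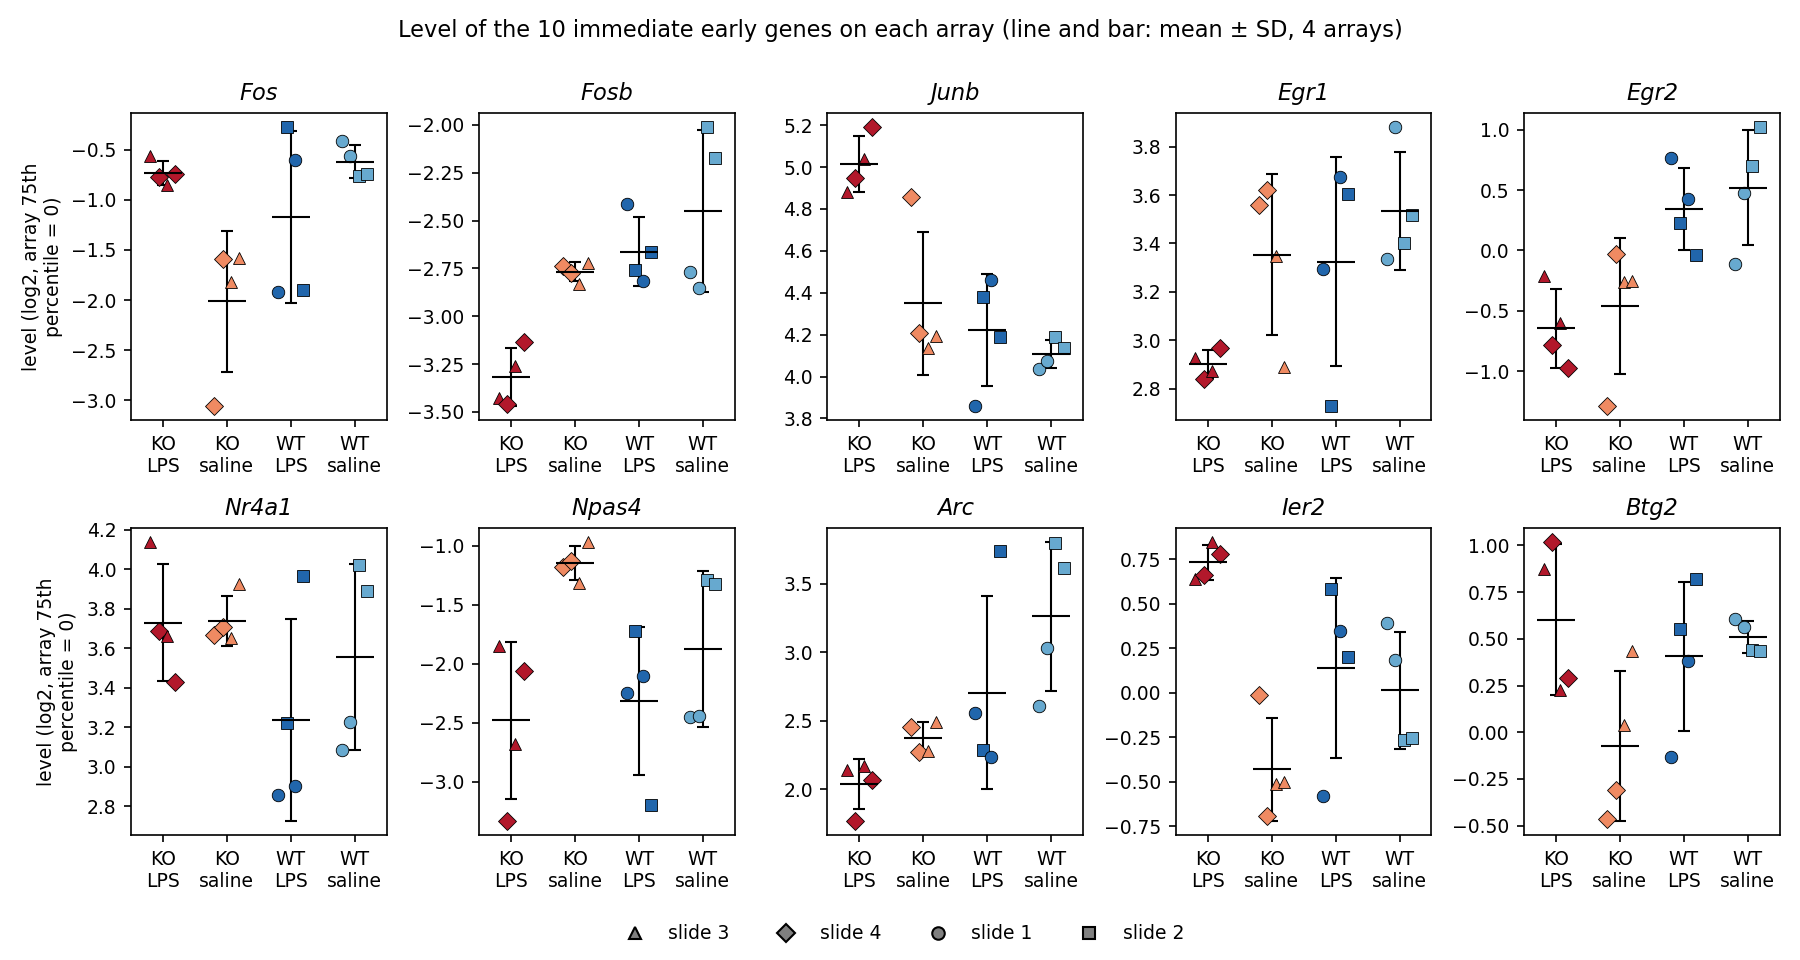
Level of each of the 10 genes on each array (y axis, log2 with the array 75th percentile at 0; each panel has its own scale). Symbols show the slide, and the line and bar show the mean ± SD of 4 arrays. In the Ier2 panel the 4 KO LPS arrays lie between 0.64 and 0.85 and the 4 KO saline arrays between −0.69 and −0.02.

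In the KO amygdala, 1 member rose 6 h after LPS: Ier2, by 1.16 ± 0.24 (log2 difference ± SE, n = 4 arrays per group). By the same limma test 712 of 19462 genes changed, 3.66%, and 2.5% rose, so the members' share above that background rests on a single gene. The members' median absolute log2 difference was 0.61, against 0.25 over all genes, and their median signed difference was −0.10, against −0.09. Egr2 and Nr4a1 lay below the absolute median of all genes. The 4 KO LPS arrays did not overlap the 4 KO saline arrays for 6 of the 10 members, 3 higher (Fos, Ier2, Junb) and 3 lower (Arc, Fosb, Npas4), against 11.3% of all genes. At an unadjusted p under 0.05 there were 6 members, against 14.5% of genes.

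Fos encodes the subunit that pairs with a Jun protein to form AP-1. It was measured by the probe at chr12:86817900-86817959 (mm9, plus strand). Its levels were −0.57, −0.77, −0.85 and −0.75 in KO LPS, against −3.06, −1.59, −1.82 and −1.58 in KO saline. All LPS arrays lay above all saline arrays, and saline array 1 lay well below the other 3. The difference was 1.28 ± 0.37 with an adjusted p of 0.0746, just outside the threshold of 0.05. Without KO saline array 1 it was 0.93 (adjusted p = 0.163). Within slides it was 0.99 on slide 3 and 1.57 on slide 4, which holds that array. Without WT LPS array 2, which enters only through the pooled spread, the adjusted p for 1.28 was 0.046.

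Junb encodes an AP-1 partner that often restrains the activity of Jun. It has 2 probes that overlap in part, at chr8:87500881-87500940 and chr8:87500843-87500902 (mm9, minus strand). The first of them represents the gene, and its levels were 4.88, 4.95, 5.04 and 5.19 in KO LPS, against 4.86, 4.21, 4.14 and 4.19 in KO saline. KO saline array 1 lay just under the lowest LPS array, well above the other 3 saline arrays. The difference was 0.66 ± 0.18 (adjusted p = 0.0577). Without KO saline array 1 it was 0.83 (adjusted p = 0.00678), against 3.85% of all genes called in that setting. With all arrays kept, the difference of 0.66 had an adjusted p of 0.0424 with slide as a fixed block and 0.0321 with slide as a random block. It was also called with normexp (0.88, adjusted p = 0.0438), quantile scaling (0.76, 0.00911) and the mean over both probes (0.75, 0.0271). Without WT LPS array 1 the adjusted p for 0.66 was 0.0446. At the other probe the levels were 4.07, 4.08, 4.24 and 4.17 in KO LPS, against 3.71, 3.26, 3.09 and 3.12 in KO saline. These groups did not overlap either, and the difference there was 0.84 ± 0.22 (adjusted p = 0.053 over all probes).

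Fosb encodes a Fos relative whose truncated form builds up with repeated stimulation. At its probe, chr7:19888477-19888536 (mm9, minus strand), levels were −3.43, −3.46, −3.26 and −3.13 in KO LPS, against −2.74, −2.78, −2.83 and −2.72 in KO saline. The saline arrays lay close together and above every LPS array, opposite to Fos and Junb. The difference was −0.55 ± 0.19 (adjusted p = 0.15), with −0.57 on slide 3 and −0.54 on slide 4.

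Npas4, a transcription factor found largely in neurons and induced by calcium influx, had the lowest log2 difference of the members. At chr19:4984833-4984892 (mm9, minus strand) its levels were −1.85, −3.34, −2.68 and −2.06 in KO LPS, against −1.18, −1.12, −1.32 and −0.96 in KO saline. Every LPS array lay below every saline array, and the LPS arrays were spread more widely. The difference was −1.34 ± 0.37 (adjusted p = 0.0624), with −1.12 on slide 3 and −1.55 on slide 4. Npas4 passed the threshold with slide as a random block (adjusted p = 0.0427), with normexp (−1.06, 0.0309), quantile scaling (−1.36, 0.0449) and median scaling (−1.34, 0.0492). Without WT saline arrays 1 and 2, which are in neither group but widen the pooled spread, the same difference had an adjusted p of 0.0302, and that of Fosb 0.0381. Leaving out those 2 arrays brought the count to 1 member higher and 2 lower, against 4.87% of all genes. Without WT LPS array 4 the adjusted p for Npas4 was 0.0393.

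Ier2, a small nuclear protein of the early response, was the member that passed the test. At chr8:87185211-87185245 (mm9, minus strand, the span the files give for this probe) its levels were 0.64, 0.66, 0.85 and 0.78 in KO LPS, against −0.02, −0.69, −0.51 and −0.50 in KO saline. The groups did not overlap, with saline array 1 nearest to the LPS arrays. The rise of 1.16 had an adjusted p of 0.011, a 95% interval of 0.66 to 1.67, and values of 1.25 on slide 3 and 1.07 on slide 4. Without KO saline array 1 it was 1.30 (adjusted p = 0.00801). The other Ier2 probe, at chr8:87183623-87183681 and tied in the files to another transcript record, was dim. It was well above background on 2 of the 4 KO LPS arrays, 3 KO saline, 1 WT LPS and 2 WT saline arrays. It averaged −4.85 in KO LPS and −3.86 in KO saline. The mean over both probes had a difference of 0.0872, but it takes in the dim probe, which passed the filter only through KO saline. The Ier2 call rests on the first probe.

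The other zinc finger, receptor, synaptic and RNA-linked members gave no call in KO. Egr1, a zinc finger factor that marks active neurons, ranged from 2.84 to 2.97 in KO LPS, against 2.89 to 3.62 in KO saline, with a difference of −0.45 ± 0.22 (adjusted p = 0.358). Egr2, its relative that also drives myelination in peripheral nerve, had levels of −0.21, −0.78, −0.60 and −0.98 in KO LPS, against −1.29, −0.03, −0.26 and −0.26 in KO saline. Those groups overlapped, saline array 1 being the lowest of the 8, and the difference was −0.18 ± 0.30, or −0.46 without that array (adjusted p = 0.46). Nr4a1, an orphan nuclear receptor, ranged from 3.43 to 4.14 in KO LPS, against 3.65 to 3.92 in KO saline, and its difference was −0.01 ± 0.26 (95% interval −0.57 to 0.55).

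Arc, whose protein acts at synapses and whose RNA travels into dendrites, had levels of 2.14, 1.77, 2.17 and 2.07 in KO LPS, against 2.46, 2.27, 2.28 and 2.49 in KO saline. The groups did not overlap, but the gap between them was narrow and the difference was −0.34 ± 0.31 (adjusted p = 0.648). Btg2, an antiproliferative protein that promotes removal of mRNA tails, ranged from 0.22 to 1.02 in KO LPS, against −0.47 to 0.44 in KO saline at chr1:135972094-135972153. Its difference there was 0.68 ± 0.25 (adjusted p = 0.185). The other Btg2 probes gave 0.39 ± 0.29 and −0.07 ± 0.27, and none of the 3 was called, against 3.04% of all probes.

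Cell type markers were read on the same arrays. None of the 9 neuron markers was called in KO, with a mean level of 4.27 to 4.42 in KO LPS and 4.36 to 4.57 in KO saline. Of the 8 genes of the LPS response 7 rose, with a mean level of 2.08 to 2.53 in KO LPS and −4.21 to −3.93 in KO saline. Microglia and macrophage markers, 0 of 7 called, had a mean level of −0.74 to −0.45 in KO LPS and −0.68 to 0.36 in KO saline, and 1 of 5 endothelial markers fell. Of 6 astrocyte markers 1 rose, Gfap, by 1.13 ± 0.29 (adjusted p = 0.0373), and none was called without KO saline array 1. The mean astrocyte level was 2.24 to 2.36 in KO LPS and 1.96 to 2.24 in KO saline. The part of other cell types in the members' levels was not tested.

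With the WT labels as given, no member was called after LPS in the WT amygdala by limma, none had an unadjusted p under 0.05, and the WT LPS and WT saline arrays overlapped for all 10. Of all genes 2 of 19462 were called, 0.0103%, 6.62% had an unadjusted p under 0.05, and 4.8% had groups that did not overlap. The members' median difference was −0.21, against −0.04 over all genes.

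The WT arrays disagreed among themselves. Fos was −1.92, −0.27, −0.60 and −1.90 in WT LPS, against −0.41, −0.56, −0.76 and −0.74 in WT saline. WT LPS arrays 1 and 4, the same arrays that had the lower mean over the LPS response genes, lay more than a log2 unit under the other arrays of the genotype. The difference was −0.55 ± 0.37 (95% interval −1.34 to 0.23). Ier2 was −0.58, 0.58, 0.35 and 0.20 in WT LPS, against 0.39, 0.18, −0.27 and −0.25 in WT saline. WT LPS array 1 was again the lowest, WT saline arrays 3 and 4 lay under arrays 1 and 2, and the difference was 0.13 ± 0.24.

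Npas4 was −2.25, −1.73, −2.10 and −3.20 in WT LPS, against −2.45, −2.44, −1.29 and −1.32 in WT saline. Here the saline group divided, arrays 1 and 2 lying among the LPS arrays and arrays 3 and 4 above all of them. Arc was 2.56, 2.28, 2.23 and 3.74 in WT LPS, against 2.61, 3.03, 3.80 and 3.61 in WT saline. WT LPS array 4 stood with saline arrays 3 and 4. Nr4a1 had the same arrays on top, at 2.86, 3.22, 2.90 and 3.96 in WT LPS, against 3.09, 3.23, 4.02 and 3.89 in WT saline. Fosb was −2.41, −2.76, −2.81 and −2.66 in WT LPS, against −2.77, −2.85, −2.01 and −2.17 in WT saline, again with saline arrays 3 and 4 highest.

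Leaving out WT saline arrays 1 and 2 brought no WT call among the members, against 3.13% of all genes. At an unadjusted p under 0.05 there were then 4 members, against 16.1% of genes. The median difference of all 10 members was −0.47, against −0.10 over all genes. Npas4 then differed by −1.01 (adjusted p = 0.225), Arc by −1.0 (0.141), Nr4a1 by −0.72 (0.223) and Fosb by −0.57 (0.107). On slide 2, which holds WT saline arrays 3 and 4, Npas4 differed by −1.16 and on slide 1 by 0.27. Hippocampal markers averaged −0.36 and −0.24 on WT saline arrays 3 and 4, against −1.77 and −1.75 on arrays 1 and 2. The neuron marker mean was higher there too: 4.09 and 3.98, where arrays 1 and 2 had 3.16 and 3.45. So were several other lists, those of striatum and oligodendrocytes among them. WT LPS array 4, highest of its group for Arc and Nr4a1, had 3.98 for neuron markers but −1.96 for hippocampal ones. Its Npas4 level, at −3.20, was the lowest of the WT arrays. The part of these markers in the members' levels was not tested.

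**Figure D2:**
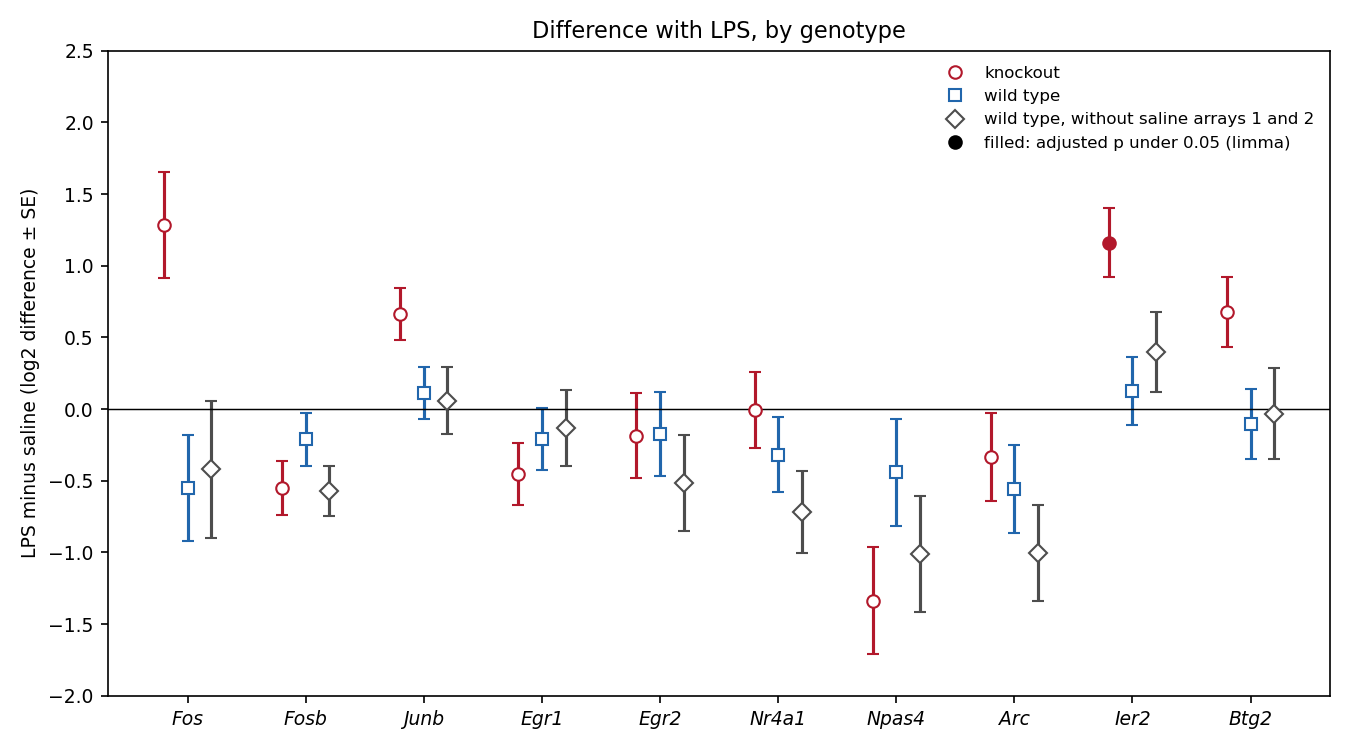
LPS minus saline (y axis, log2 difference ± SE) for each gene in knockout, in wild type, and in wild type without saline arrays 1 and 2. A filled symbol marks an adjusted p under 0.05 by limma, which Ier2 in knockout reached at 1.16.

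Whether the LPS difference itself differed between genotypes was tested by the interaction, KO difference minus WT difference. No member was called by limma, against 0.036% of all genes, and 4 members had an unadjusted p under 0.05, against 6.91% of genes. Fos had the highest value, 1.83 ± 0.52 (adjusted p = 0.362, 95% interval 0.72 to 2.94), and Ier2 had 1.04 ± 0.34 (adjusted p = 0.459). Btg2 had 0.78 ± 0.35 and Junb 0.55 ± 0.26. The lowest was that of Npas4, −0.89 ± 0.53. WT saline arrays 1 and 2, which hold the LPS response genes at a high level, enter these values. Without those arrays the value was 1.70 for Fos and 0.76 for Ier2, and no member was called, against 0.00514% of all genes. At an unadjusted p under 0.05 there was then 1 member, against 6.95% of genes.

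Between genotypes after LPS, 1 member was higher in KO (Junb) and 2 were lower (Egr2, Fosb), against 47.2% of all genes called in either direction. The share of members is below that background. KO LPS and WT LPS arrays did not overlap for 5 members (Ier2 and Junb higher, Arc, Egr2 and Fosb lower), against 51.9% of all genes. Junb was 4.88, 4.95, 5.04 and 5.19 in KO LPS, against 3.86, 4.38, 4.46 and 4.19 in WT LPS, and the KO arrays lay above all WT arrays. The difference was 0.79 ± 0.18 (adjusted p = 0.00238). The other Junb probe gave −0.20 ± 0.22 (adjusted p = 0.473 over all probes), and the mean over both probes gave 0.30 (adjusted p = 0.195), so the call depends on the probe.

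Egr2, at chr10:67004758-67004817 (mm9, plus strand), was −0.21, −0.78, −0.60 and −0.98 in KO LPS, against 0.77, 0.23, 0.43 and −0.04 in WT LPS. The 2 groups did not overlap, and Egr2 was lower in KO by −0.99 ± 0.30 (adjusted p = 0.0122). That call was lost without slide 1 (−0.74, adjusted p = 0.107) or slide 4 (−0.75, 0.0676). Fosb was lower in KO by −0.66 ± 0.19 (adjusted p = 0.00971), and its highest KO LPS array, at −3.13, lay under its lowest WT LPS array, at −2.81. With another background correction, normexp, that value was −0.21 (adjusted p = 0.506), with 33.8% of all genes called. The Fosb call was also lost without slide 3 (−0.63, adjusted p = 0.0907). Without WT LPS array 2 the count of members called was 5, Egr1 at −0.62 and Ier2 at 0.74 being added, against 43.9% of all genes. Ier2, at 0.59, also passed without KO saline array 1 (adjusted p = 0.0336), against 55.7% of all genes. It passed too without WT saline array 1 (0.048) or WT saline arrays 1 and 2 (0.0444, against 49.4% of all genes). Those saline arrays are in neither group and enter only through the pooled spread. Nr4a1, at 0.74, passed without WT LPS array 4 (0.0217). With any 1 array left out, 7938 to 10843 of all genes were called.

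After saline 3 members were lower in KO than in WT (Fos, Egr2, Arc) and none was higher, against 51.0% of all genes called in either direction and 22.6% called lower. KO saline and WT saline arrays did not overlap for Arc and Fos, against 46.2% of all genes. Fos was −3.06, −1.59, −1.82 and −1.58 in KO saline, against −0.41, −0.56, −0.76 and −0.74 in WT saline. Every WT array lay above every KO array. The difference was −1.39 ± 0.37 (adjusted p = 0.0057), −1.04 without KO saline array 1 (adjusted p = 0.0173) and −1.26 without WT saline arrays 1 and 2 (adjusted p = 0.0538), where the call was lost. The Fos call was also lost without slide 4 (−1.08, adjusted p = 0.0648). Of all genes 49.8% were called without KO saline array 1 and 35.7% without WT saline arrays 1 and 2.

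Egr2 was −1.29, −0.03, −0.26 and −0.26 in KO saline, against −0.11, 0.47, 0.70 and 1.03 in WT saline. WT saline array 1 lay among the KO arrays, and the difference was −0.98 ± 0.30 (adjusted p = 0.012). It was −1.32 without WT saline arrays 1 and 2 (adjusted p = 0.00853) and −0.70 without KO saline array 1 (0.0358). The Egr2 call was lost without slide 2 (−0.64, adjusted p = 0.15) or slide 4 (−0.78, 0.0614). Arc, at chr15:74499597-74499656 (mm9, minus strand), was 2.46, 2.27, 2.28 and 2.49 in KO saline, against 2.61, 3.03, 3.80 and 3.61 in WT saline. The KO arrays lay below all WT arrays, WT arrays 3 and 4 being highest. The difference was −0.89 ± 0.31 (adjusted p = 0.0246). It was −1.33 without WT saline arrays 1 and 2 (adjusted p = 0.00797) and −0.92 without KO saline array 1 (0.0361). Fosb, at −0.32 with all arrays, passed at −0.68 without WT saline arrays 1 and 2 (adjusted p = 0.00921). The Arc call was lost without KO saline array 2 (−0.85, adjusted p = 0.0516), KO saline array 3 (−0.86, 0.0507), WT saline array 3 (−0.71, 0.0775) or WT saline array 4 (−0.77, 0.0689). It was also lost without slide 2 (−0.45, adjusted p = 0.0927), slide 3 (−0.90, 0.112) or slide 4 (−0.88, 0.124). Btg2 was added without KO saline array 4 (−0.76, adjusted p = 0.0209) or WT LPS array 1 (−0.58, 0.0428). The latter array enters only through the pooled spread. With any 1 array left out, 8553 to 9944 of all genes were called.

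Probes of 1 gene disagreed most in the genotype comparisons. After saline the Junb probe at chr8:87500843-87500902 was 3.71, 3.26, 3.09 and 3.12 in KO saline, against 4.52, 5.03, 4.02 and 4.30 in WT saline. All KO arrays lay below all WT arrays there, a difference of −1.17 ± 0.22 (adjusted p = 0.000546 over all probes), while the overlapping probe gave 0.24 ± 0.18 (adjusted p = 0.283). The bases of the probe at chr8:87500843-87500902 were 30.0% G or C and those of the overlapping probe 43.3%. The dim Ier2 probe, which passed the filter only through KO saline, its highest group, averaged −4.85 in KO LPS and −6.55 in WT LPS, and −3.86 in KO saline and −6.01 in WT saline. These means rest in part on arrays where it was not well above background, and no test is given for it. The brighter Ier2 probe differed by 0.59 ± 0.24 after LPS and by −0.44 ± 0.24 after saline. Over the 13 probes well above background on all 16 arrays, 1 was higher and 2 lower in KO after LPS, against 48.4% of all probes called, and none was higher and 4 were lower after saline, against 52.1%.

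**Figure D3:**
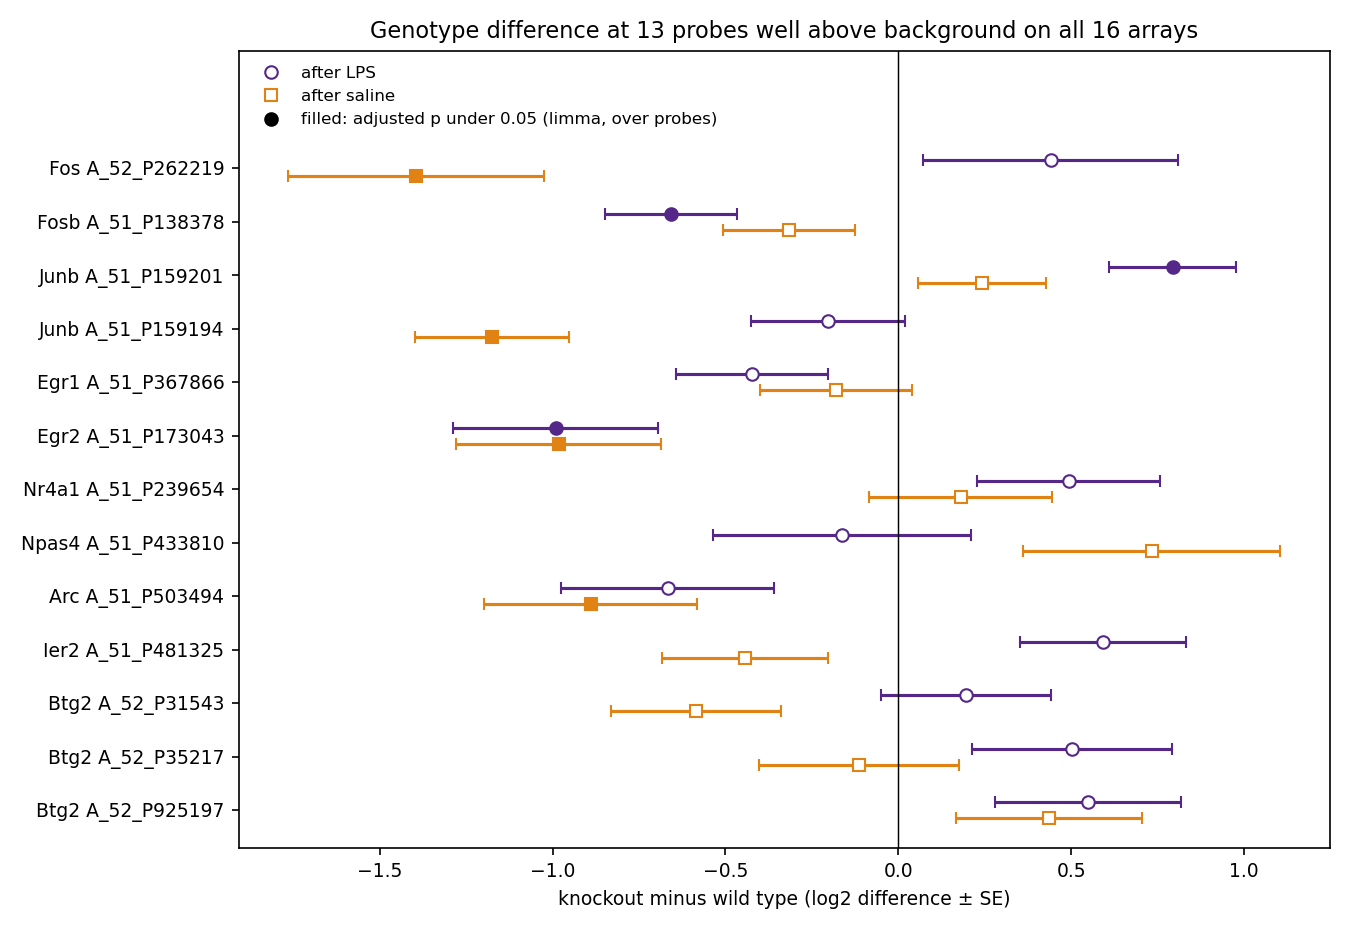
Knockout minus wild type (x axis, log2 difference ± SE) at the 13 probes well above background on all 16 arrays, after LPS and after saline. Filled symbols have an adjusted p under 0.05 over all probes. The pair of Junb probes lie on opposite sides of 0, at 0.24 and −1.17 after saline.

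Markers were also called between genotypes, where 47.2% of all genes were called after LPS and 51.0% after saline. The counts are not read as particular to these lists. Of 9 neuron markers 5 were higher and 1 lower in KO after LPS, and 4 higher and 1 lower after saline. Of 6 astrocyte markers 3 were higher and 1 lower after LPS, and 3 higher and 2 lower after saline. Of 7 oligodendrocyte markers 6 were lower and 1 higher in KO after LPS and 5 were lower after saline, and of 9 striatal markers 3 were lower after LPS and 6 after saline. Lists of glutamatergic and GABA neurons, hippocampus, microglia, endothelium and choroid plexus also held calls, the last only after LPS. The part of tissue composition, slide and scan session in the members' genotype differences was not tested, and genotype cannot be told apart from slide and session.

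The authors' deposited table lists a linear fold change for 4 of the members' probes. In the authors' deposited table Fos is 2.43-fold up, Ier2 2.24-fold up and Npas4 2.53-fold down in KO LPS against KO saline, with Junb 1.80-fold up at the probe at chr8:87500843-87500902. For KO saline against WT saline, the authors' deposited table gives Fos as 2.62-fold down and that Junb probe as 2.25-fold down.

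The wider early response in KO held genes that moved further than the members. Of 17 measured genes in a list of other immediate early factors 5 rose in KO and none fell, against 3.66% of all genes called, with a median of 0.20 against −0.09 over all genes. Maff, a small Maf factor, rose by 3.85 ± 0.57 and Atf3, a stress-induced factor of the ATF family, by 3.60 ± 0.60. Ier3 rose by 2.12 ± 0.40, Myc by 1.85 ± 0.31 and Csrnp1 by 1.52 ± 0.26. Of 23 measured activity-regulated effectors 6 rose and 1 fell, against the same 3.66%, with a median of 0.44. Zfp36, which speeds decay of cytokine mRNA, rose by 2.76 ± 0.46, and the Ras-like protein Rasd1, known for its glucocorticoid induction, by 2.40 ± 0.25. Trib1 rose by 2.12 ± 0.29, the matrix protein gene Ccn1 by 1.88 ± 0.29, the MAP kinase phosphatase Dusp1 by 1.0 ± 0.22 and Gadd45g by 0.71 ± 0.18. Inhba, an activin subunit, fell by 0.78 ± 0.21 on the log2 scale, and without KO saline array 1 it was no longer called while Plk2 rose by 0.57 ± 0.15. Of 17 measured upstream signalling genes none was called in KO or in WT by limma.

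In WT none of these 3 lists had a call after LPS. Without WT saline arrays 1 and 2, where 3.13% of all genes were called, Maff rose by 2.48 ± 0.38, Zfp36 by 1.98 ± 0.21 and Ier3 by 1.65 ± 0.30. Those arrays were set apart by their high LPS response genes. Leaving them out by itself favours a rise of genes that follow that response, so these rises are no separate support. Nptx2 and Bdnf, both products of active neurons, fell by 1.03 ± 0.19 and 0.87 ± 0.20 on the log2 scale. These falls rest on WT saline arrays 3 and 4, where hippocampal and neuron markers were higher than on the arrays left out. The part of that in the falls was not tested. In KO under the same setting, Bdnf fell by 0.85 ± 0.17 and Nptx2 by 0.74 ± 0.15, though neither was called in KO with all arrays kept. Both comparisons share no array, but they share the pooled spread of the model.

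**Figure D4:**
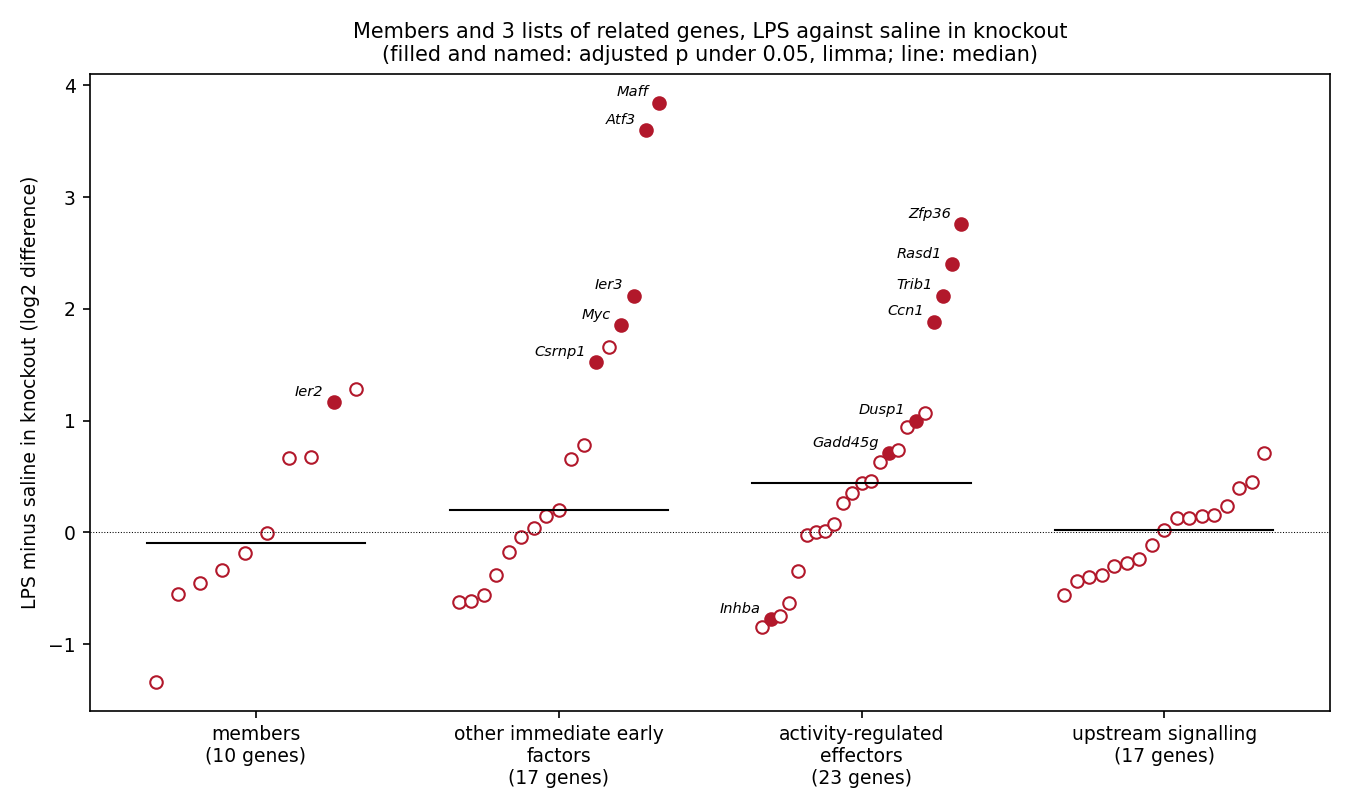
LPS minus saline in knockout (y axis, log2 difference) for the 10 immediate early genes and 3 lists of related genes, each point a gene in order of its value and each line the list's median. Filled, named points have an adjusted p under 0.05 by limma. Maff (3.85) and Atf3 (3.60) lie highest, and Ier2 (1.16) is the filled member.

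By the difference of levels over 16 arrays, centred within genotype, the genes nearest to the mean of the 10 members were Sec22a, Thumpd3, Sh3yl1, Smim19 and Stmn2, with a root mean square difference of 0.0935 to 0.107 (log2). Those nearest to Fos were Lum, Postn and Tmem243, at 0.36 to 0.378. The member mean itself varied little, with an SD of 0.15 over the arrays against 0.70 for Fos.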

How the data were processed

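Cy3 intensity was measured on 16 single-colour Agilent arrays (4 slides of 4) of amygdala RNA. The deposited array files hold linear spot intensity from Agilent Feature Extraction 9.5 (version per the submitters' processing notes). Background was subtracted within each array and arrays were not scaled to each other, per the file headers. The authors also deposited log2 values averaged over the 4 arrays of a group and a list of linear fold change between group means; 32 per-array columns of detection calls in these lists were not used here. The array 75th percentile of intensity ran from 346 to 614 on KO arrays and from 581 to 1153 on WT arrays, and the share of probes well above background from 58.1% to 71.9%. Precision is limited by how many arrays there are.

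Levels are log2 of the processed intensity minus the array 75th percentile. A probe was kept if well above background on at least 3 of 4 arrays of a group (28345 probes), and the kept probe with the highest mean stood for its gene (19462 genes). A model of 4 group means was fitted over all 16 arrays with limma 3.58.1 (R 4.3.3, statmod 1.5.0), with Benjamini-Hochberg adjustment over all genes, or over all kept probes where stated; an adjusted p under 0.05 is a call. The method was tested on simulated data. Named genes were all 10 members, P2rx7 as the targeted gene, called genes of the marker lists and of 3 lists of related genes, and the 5 genes nearest in profile to the member mean and the 3 nearest to Fos. Members, lists and tests were chosen with earlier results of these data known. Probe coordinates are those of the files (mm9); promoters are RefSeq GRCm38.p6, 7 of 10 members matched, and builds were not mixed. Alternatives covered background correction, scaling, filters, probe choice, base composition, slide and replicate blocks, and leaving out arrays or slides. No 2 arrays were copies: the closest pair differed by a median of 0.119 (log2).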

Additional observations from a re-analysis of the deposited data

Results flagged for a closer look

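In 2 of the 40 sets of 4 arrays tested (10 members in 4 groups), 1 array lay far from the other 3 by Dixon's criterion, the gap to the nearest array over the whole range. Chance flags about 1 in 20 groups. Both were KO saline array 1, which also deviated most over all genes. Fos was −3.06 on that array, with the nearest KO saline array at −1.82 (gap over range 0.835). Junb was 4.86 there, with the nearest at 4.21 (gap over range 0.901). Without the array, the LPS difference in KO was 0.93 for Fos and 0.83 for Junb.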

How the results depend on the processing

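Over 35 alternatives, the 50 member differences (10 members in 5 comparisons) gave 1570 values, of which 1453 kept their direction and side of the threshold, 45 passed it anew, 20 no longer passed and 52 changed sign, 2 of the last past the threshold. Those 2 came with the mean over probes, for Junb and for Ier2, whose mean takes in the dim probe. The number of members called in KO after LPS, 1 in the analysis as reported, was 3 with normexp, quantile scaling or slide as a random block and without WT saline arrays 1 and 2, 2 with median scaling, with slide as a fixed block, within slide 3, without slide 1 and without slide 2, and 0 within slide 4, without slide 3 and without slide 4, where fewer arrays enter; leaving out 1 array gave 1 to 2, with 2 without KO saline array 1 or WT LPS array 1, 2 or 4. Of all genes 2.05% were called with normexp, 4.87% without WT saline arrays 1 and 2 and 4.86% with slide as a fixed block. Within slide 3 the share was 4.53% and within slide 4 0.915%. With 1 array left out, 428 to 754 of all genes were called. Ier2 lost its KO call within slide 4 and without slide 3 or slide 4. It also lost it with the mean over probes, which takes in the dim probe, while Junb was called there (0.75, adjusted p = 0.0271). In WT the count was 0 throughout, also for every array left out. After saline the KO against WT count, 3 as reported, was 5 with normexp, against 60.7% of all genes, and 0 without slide 4. It was 5 with the mean over probes, where the Ier2 call takes in the dim probe. With 1 array left out it was 2 to 4, where 8553 to 9944 of all genes were called. After LPS the KO against WT count was 3 as reported and 5 without slide 2. With 1 array left out it was 3 to 5, where 7938 to 10843 of all genes were called. Counts given without a share of all genes are not read as a result about the members. The interaction count was 1 without slide 2 (Ier2, 1.56, adjusted p = 0.0498), and otherwise 0. Beyond the alternatives just named the cause of these changes was not tested. Normexp moved the median of all genes to −0.22 for LPS in KO, against −0.09 as reported, and to 0.43 for KO against WT after saline, against 0.07. Of all genes, the 712 called for LPS in KO were 398 with normexp, 178 within slide 4, 1 without slide 3, 0 without slide 4 and 428 to 446 without KO LPS array 1, 2 or 3. The 2 called for LPS in WT ran up to 610 without WT saline arrays 1 and 2, with 244 within slide 2, 411 without slide 1, 88 without slide 2 and 0 to 19 elsewhere. The 7 of the interaction were 579 without slide 2 and 0 to 17 elsewhere.

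Values that changed sign lay mostly near 0. With normexp they were Nr4a1 (LPS in KO) at 0.17, Fosb (KO against WT after saline) at 0.32, Btg2 (KO against WT after LPS) at −0.14 and Egr1 (interaction) at 0.0201. With quantile scaling they were Nr4a1 (LPS in KO) at 0.0941 and, for KO against WT after saline, Junb at −0.0885 and Nr4a1 at −0.0406. With the mean over probes they were Junb at −0.0071 and Ier2 at −0.20 for LPS in WT, and Junb at −0.47 (adjusted p = 0.043) and Ier2 at 0.85 for KO against WT after saline. The Ier2 mean takes in the dim probe, which passed the filter only through KO saline, so no test is given for that value. With base composition corrected, Egr1 was 0.0308 for KO against WT after saline. For LPS in WT, Fosb was 0.20, Egr2 0.42, Npas4 0.27 and Ier2 −0.40 within slide 1 and without slide 2, and Btg2 was 0.25 within slide 2 and without slide 1. Without slide 1, Nr4a1 was −0.22 (KO against WT after saline), Btg2 −0.0848 (KO against WT after LPS), and in the interaction Fosb 0.0683 and Egr2 0.58. Without slide 2, Fosb was 0.04 and without slide 3 Egr1 was 0.0555, both for KO against WT after saline. Within slide 3 and without slide 4, Nr4a1 (LPS in KO) was 0.11, and without slide 4 Npas4 (KO against WT after LPS) was 0.055 and Egr2 (interaction) 0.0254. Without WT saline arrays 1 and 2, Nr4a1 was −0.22 (KO against WT after saline), and in the interaction Fosb was 0.0187 and Egr2 0.33. With 1 array left out, Nr4a1 for LPS in KO ran from −0.14 to 0.0925, Ier2 for LPS in WT from −0.0222 to 0.37, Btg2 for LPS in WT from −0.24 to 0.0748, Npas4 for KO against WT after LPS from −0.46 to 0.12 and Egr2 in the interaction from −0.29 to 0.20.

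Arrays with the same replicate number correlated from −0.38 to 0.34 in their deviations from the group means. Arrays with different numbers correlated from −0.40 to 0.33. These values show no pairing by number, but with so few arrays they cannot exclude one. With the replicate block the counts were 1 for LPS in KO, 0 for LPS in WT, 3 for KO against WT after each treatment and 0 for the interaction. A within-slide fit between genotypes could not be run, since each slide held 1 genotype, nor a fixed slide block there. Of the 14 probes 13 lay well above background on all 16 arrays, but some of these were low. The Fosb probe had a processed intensity of 34.9 to 60.2 in KO LPS. With normexp its KO against WT difference went from −0.66 to −0.21 after LPS and from −0.32 to 0.32 after saline. The part of low signal in such changes was not tested.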
